A study of Mus musculus with 4 samples.

Results

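Immediate early genes are switched on within minutes of a stimulus, without new protein synthesis, and their mRNAs are short-lived. Kinases of the MAP kinase and cAMP pathways act on factors already bound at their promoters, such as SRF, the ELK factors and CREB, and the products are mostly transcription factors that act on a later set of genes. Cutting, cooling or dissociating a tissue is a well-known trigger, so these genes are often read as a sign of how a sample was handled. The 10 genes described here were Fos, Fosb, Jun, Junb, Egr1, Egr2, Egr3, Ier2, Atf3 and Dusp1. They were chosen by name, and each was found in 1 of the 33708 rows of the gene table.

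The tissue was the frontonasal prominence (FNP), the embryonic facial swelling that forms the forehead and nose, taken from mid-gestation (E10.5) FVB/NJ mouse embryos with 29 somites. Wild-type embryos (Smchd1+/+, WT) were labelled as 1 female and 1 male. Embryos homozygous for MommeD43 (Smchd1MommeD43/MommeD43, MD43), a chemically induced missense allele of the chromatin silencing factor SMCHD1, were labelled as 2 males. WT replicate 2 and MD43 replicate 2 shared a mother and the other 2 embryos came from other mothers, so sex and litter cannot be separated from genotype. The study's methods state that the pieces were removed with forceps in cold saline, and all 4 embryos were handled this way. No tissue frozen without dissection was analysed here, so a level cannot be split into a resting part and a response to handling.

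The table gives 1 log2 RPKM value per genotype (reads scaled for transcript length and library size), in which the 2 libraries are merged. The difference between these 2 values therefore has no replicate check here. The authors' FDR column was not used, and no p-value is given. The values are means of the logs of 2 libraries, so the product of the 2 read counts was recovered from each. A read number without a library is the geometric mean of both libraries. The ± value is a standard error from read counting alone, a lower limit that leaves out variation between embryos. Depth was 22328791 reads in MD43 and 16055881 in WT. The 10 facial mesenchyme markers, among them Pdgfra, Twist1 and Prrx1, all had at least 10 reads (median log2 difference 0.01), and the neural progenitor markers also did, led by Nes. Smchd1 itself, which carries a missense change and was not deleted, was at 3.30 log2 RPKM in MD43 and 3.31 in WT.

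Promoters of 7 of the 10 genes were found in the RefSeq table (GRCm38.p6). The 250 bases before the start are shown for Fos, Atf3 and Dusp1, because all 3 hold the core of the cAMP response element (CRE), the sequence bound by CREB and ATF proteins, while their differences between genotypes were unlike. Letters are 5′ to 3′ on the gene's strand, and capitals mark the CRE core TGACGT on either strand, the full CRE TGACGTCA (which contains the core) and the TATA box TATAAA.
Fos: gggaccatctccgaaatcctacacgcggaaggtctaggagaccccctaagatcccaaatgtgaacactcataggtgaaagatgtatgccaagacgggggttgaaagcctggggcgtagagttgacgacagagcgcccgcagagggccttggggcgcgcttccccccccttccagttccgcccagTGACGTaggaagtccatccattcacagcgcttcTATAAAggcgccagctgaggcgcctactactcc
Atf3: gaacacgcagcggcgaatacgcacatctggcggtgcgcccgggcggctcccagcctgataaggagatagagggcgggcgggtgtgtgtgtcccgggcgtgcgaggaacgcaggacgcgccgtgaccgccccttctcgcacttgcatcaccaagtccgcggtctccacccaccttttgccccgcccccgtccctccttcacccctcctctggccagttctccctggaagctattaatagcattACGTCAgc
Dusp1: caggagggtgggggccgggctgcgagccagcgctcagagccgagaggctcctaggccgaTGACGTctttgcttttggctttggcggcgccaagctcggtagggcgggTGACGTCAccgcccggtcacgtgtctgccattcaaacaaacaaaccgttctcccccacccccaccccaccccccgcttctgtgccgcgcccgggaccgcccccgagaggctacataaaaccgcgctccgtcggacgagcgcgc
The Fos stretch is chr12:85473640-85473889 on the plus strand, the Atf3 stretch chr1:191183334-191183583 on the minus strand, and the Dusp1 stretch chr17:26508473-26508722 on the minus strand. The core lay 66 to 61 bases before the start in Fos and 8 to 3 bases before it in Atf3. In Dusp1 the full CRE lay 143 to 136 bases before the start. Some windows of Egr2, which are not shown, also held the core. Of all 32851 promoter windows of this length, 6.47% held the core, 1.55% the full CRE and 12.4% the TATA box. The AP-1 site TGANTCA, to which FOS and JUN bind, was in 6.75% of all windows and in none of these members' windows. The EGR site GCGNGGGCG was in 4.70% and, among the members, in Fosb. The CArG box, the SRF site, was in 1.47% of windows and in 4 of the overlapping or neighbouring windows of Egr2. These are matches of letters within 250 bases and no measure of binding.

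In this tissue Ier2 and Jun were well expressed, Dusp1, Junb, Atf3, Egr1 and Fos were low, and Egr2, Egr3 and Fosb were at the floor. Between genotypes, Atf3 was 2.34-fold and Egr1 2.09-fold lower in MD43. The other 5 measured genes differed by at most 1.16-fold. Atf3 codes for a stress-responsive factor of the ATF/CREB family and Egr1 for a zinc finger factor induced by growth factors and injury.

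**Figure D1:**
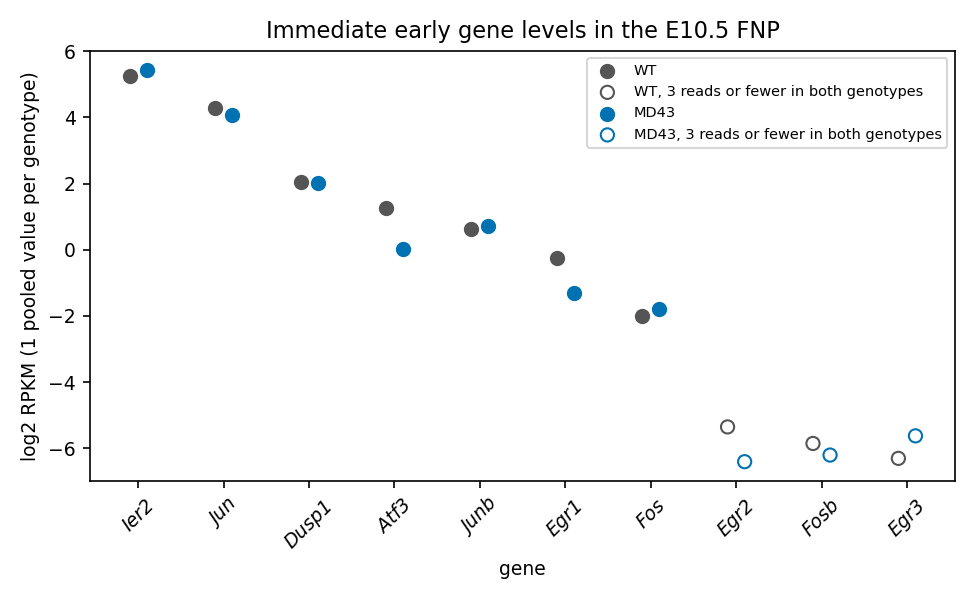
Level of each immediate early gene in log2 RPKM (y axis), ordered by WT, with WT in grey and MD43 in blue; each point is 1 pooled value and open points mark genes at 3 reads or fewer in both genotypes. Ier2 was highest at 5.42 (MD43) and 5.25 (WT), Atf3 and Egr1 are the filled pairs that lie farthest apart, and Egr2, Fosb and Egr3 lie below -5.

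The order of levels per length ran from Ier2 to Fos over 7 genes. Ier2 was at 42.8 RPKM in MD43 and 37.9 in WT, and Jun at 16.6 and 19.3. Dusp1 was at 4.07 and 4.14, and Fos, at the lower end, at 0.289 and 0.253. Every step between neighbours in this order exceeded counting error in WT. In MD43 the step from Egr1 to Fos, 1.39-fold, did not. Atf3 and Junb stood in opposite order, with Atf3 1.53-fold above Junb in WT and at 0.614 of it in MD43. Among Egr2, Egr3 and Fosb no order could be read.

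Among Fos, Fosb, Jun and Junb the highest level was that of Jun, the bZIP protein that can pair with itself or with a FOS partner. Jun (ENSMUSG00000052684, GRCm38 chromosome 4, 95049034 to 95052222, minus strand, 1 exon) was covered by 1184 reads in MD43 and 986 in WT. Its log2 difference, MD43 minus WT, was -0.21 ± 0.04. This was 1.16-fold lower in MD43, a small difference although larger than its counting error. Junb, which pairs with the same partners and often opposes JUN, had 85.2 reads in MD43 and 57.6 in WT (chromosome 8, 84974484 to 84978718, minus strand). The log2 difference of Junb was 0.09 ± 0.17, within counting error.

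Fos (ENSMUSG00000021250, chromosome 12, 85473890 to 85477273, plus strand, 4 exons) is the gene most often used as the sign of a recent stimulus. It had only 15.2 reads in MD43 and 9.54 in WT. The log2 difference of Fos was 0.20 ± 0.42, so its counting interval reached from -0.63 to 1.02 and a 2-fold difference upward was not excluded by depth. Per length, Jun was 57.4 times as high as Fos in MD43 and 76.3 times in WT. Fosb, a close relative of Fos, was at the floor in both genotypes. Its read products fix the counts of single libraries at 0 and 4 reads in MD43 and 1 and 3 reads in WT, 4 reads in all on each side.

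Jun and Junb each overlap an antisense gene. The library kit keeps strand, but whether the counts were made by strand is not given in the sources used here. Jun shares 689 bp with Junos, at 1.01 and 1.07 RPKM. Junb shares 351 bp with Prdx2, which was far more abundant at 17020 reads in MD43 and 11760 in WT. The share of such reads in the Junb value was not tested.

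Among the EGR factors, zinc finger proteins that bind the same GC-rich site, Egr1 was the only one above the floor. Egr1 (ENSMUSG00000038418, chromosome 18, 34859823 to 34864984, plus strand) was covered by 40.2 reads in MD43 and 60.4 in WT, although MD43 was the deeper genotype. Its level was 0.402 RPKM in MD43 and 0.839 in WT, a log2 difference of -1.06 ± 0.21 with a counting interval of -1.47 to -0.66. Egr2, known for its role in hindbrain segments and Schwann cells, had no read in either MD43 library, and its 2 reads in WT came from 1 library. Egr3 had no read in either WT library and either 1 and 4 or 2 and 2 reads in MD43. No fold is given for either gene.

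Atf3 showed the largest difference of the 7 measured members. Atf3 (ENSMUSG00000026628, chromosome 1, 191170296 to 191218039, minus strand) collected 49.0 reads in MD43 against 82.4 in WT. Its level was 1.02 RPKM in MD43 and 2.38 in WT, a log2 difference of -1.22 ± 0.18 with a counting interval of -1.59 to -0.86. The RefSeq start used for its promoter lies inside this longer gene model.

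Ier2 and Dusp1 showed no difference of this size. Ier2, a short single-exon gene for a nuclear protein induced by serum (chromosome 8, 84661331 to 84662854, minus strand), was covered by 1458 reads in MD43 and by 928.5 in WT. Its log2 difference was 0.17 ± 0.04, or 1.13-fold higher in MD43. Dusp1, the phosphatase that switches off p38 and JNK kinases, had 300.7 and 220.2 reads (chromosome 17, 26505590 to 26562128, minus strand). Its log2 difference was -0.03 ± 0.09, with a counting interval of -0.20 to 0.15. The gene model of Dusp1 reaches over 640 bp of Ergic1 on the other strand, which was at 16.1 and 14.7 RPKM.

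**Figure D2:**
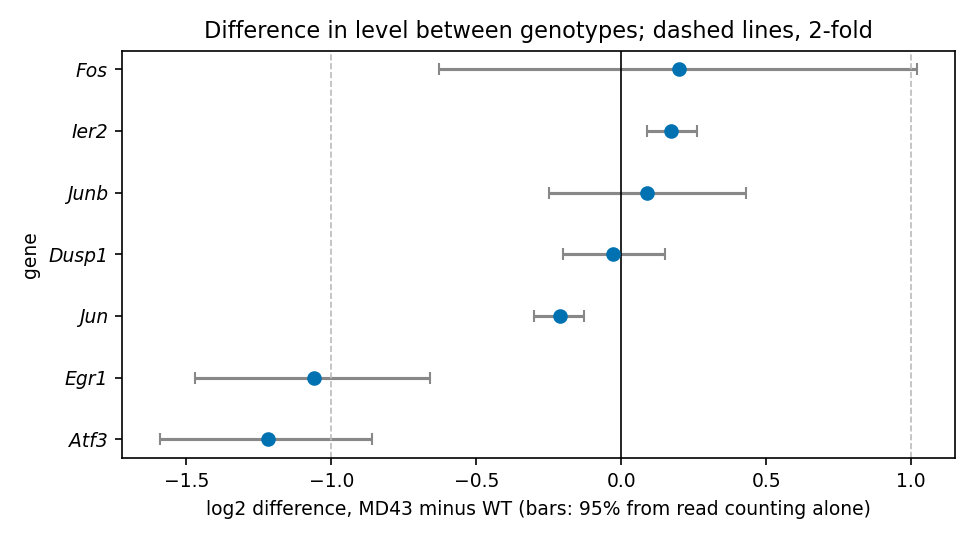
Log2 difference (x axis, MD43 minus WT) of the 7 measured immediate early genes; bars are 95% intervals from read counting alone and dashed lines mark 2-fold. Atf3 at -1.22 and Egr1 at -1.06 are the only points beyond the left dashed line. Their bars reach back across it, to -0.86 and -0.66, so a difference under 2-fold is within counting error for both. The bars of Fos, Junb and Dusp1 cross 0.

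Genes were called measured when either genotype reached 10 reads, which left 7 members and 15385 genes in all. A 2-fold lower value in MD43 was found for 2 of the 7 members, beside 2.47% of all measured genes. A 2-fold higher value was found for 0 of the 7, beside 1.64%. Of the 7, 4 were lower by any amount and 3 higher, beside 48.8% and 51.2%. Fos, 1 of the 3, reached 10 reads in MD43 alone. Differences past 2-fold were more frequent at low counts. Among the 2066 genes with a geometric mean of 30 to 100 reads, the range of Atf3, Egr1 and Junb, 3.68% passed 2-fold downward and 1.16% upward. Where both genotypes reached 100 reads (10758 genes) the shares were 0.372% and 0.0651%. The median log2 difference was -0.12 over all 10 members and -0.03 over the 7 measured ones, against 0.006 for all measured genes. The first median includes the 3 genes at the floor, and without Fos the second was -0.12 (the 6 members with at least 50 reads). With 0.1 RPKM added before the log Egr1 no longer reached 2-fold (-0.90) and Atf3 did (-1.15), and with 1 RPKM added neither did (-0.39 for Egr1 and -0.74 for Atf3).

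The read products allow a partial view of single libraries. A product has few pairs of whole numbers within 4-fold of each other. To compare the depths of the libraries, genes with products from 10000 to 300000 were used, of which 1165 in MD43 and 1304 in WT had exactly 1 such pair. In those genes the larger count was typically 1.52 times the smaller in MD43 (quartiles of the log2 ratio 0.465 and 0.760) and 1.44 times in WT (0.295 and 0.776). This ratio was taken as the ratio of depths, and counts were scaled by it to RPM (counts relative to library size, without length). Which embryo holds which count cannot be told, and pairs more than 4-fold apart were not considered. Placing the larger count in the deeper library tends to draw a genotype's 2 values together and makes overlap less likely. The share of all genes without overlap under this placement was not computed, so a lack of overlap in single genes cannot be weighed.

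For Atf3, the only such pair in MD43 was 37 and 65 reads. The pairs in WT were 79 and 86, or 43 and 158. With the larger count in the deeper library, this is 2.04 and 2.36 RPM in MD43. In WT it is 5.91 and 4.46, or 3.22 and 8.19. Under this reading the genotypes did not overlap for either WT pair. Given the pooled difference of Atf3, this is no separate support for it. For the pair 79 and 86 the genotypes did not overlap under any placement (WT 4.10 to 6.43). With the larger count in the shallower library instead, MD43 would reach 3.58 and WT could be as low as 2.23, and the genotypes could overlap.

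For Egr1, the WT product gave 44 and 83 reads alone, and the MD43 product gave 27 and 60, 30 and 54, or 36 and 45. With the larger count in the deeper library, WT was at 3.29 and 4.30 RPM and MD43 at 1.49 to 2.18 over its 3 pairs. These ranges did not overlap, which again is no separate support for the pooled difference. With the larger count in the shallower library they could, since MD43 would then reach 3.31 and WT could be as low as 2.28.

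For Fos, the pairs were 11 and 21 reads in MD43 and 7 and 13 in WT. The same reading gives 0.607 and 0.764 RPM in MD43 and 0.524 and 0.674 in WT, which overlap. Junb, at 3.14 and 4.10 in WT and 2.43 to 6.0 over 4 pairs in MD43, also overlapped. So did Dusp1, at 9.80 to 19.2 in WT and 9.10 to 19.9 in MD43. The products of Jun and Ier2 were too large for the printed digits to fix.

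**Figure D3:**
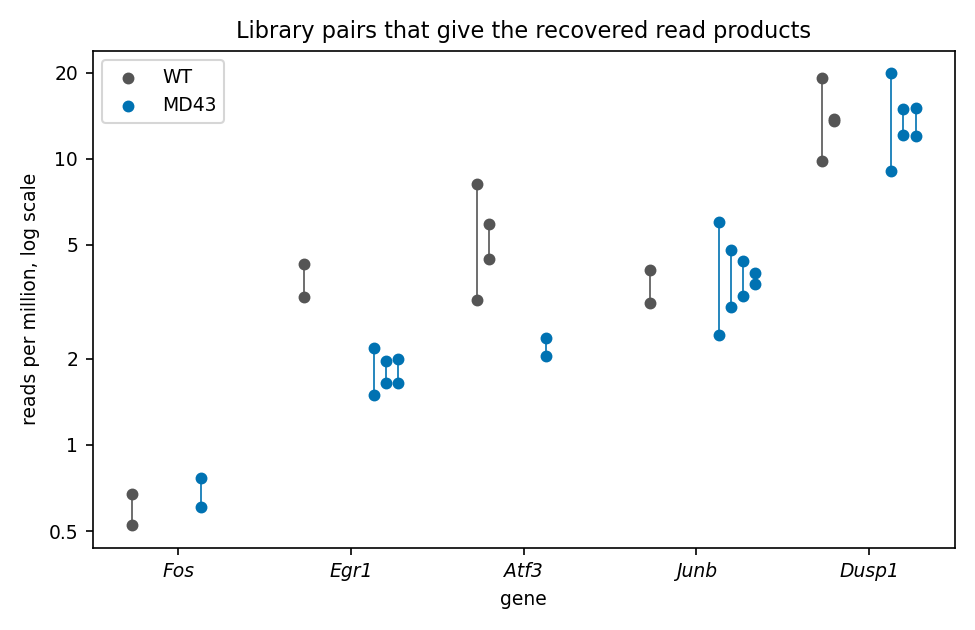
RPM (y axis, log scale) for every pair of library counts within 4-fold that gives the recovered product, with the larger count placed in the deeper library; lines join the 2 libraries of 1 possible pair, WT in grey and MD43 in blue. Under this placement MD43 pairs lie below WT pairs for Egr1 and Atf3 and within or across them for Fos, Junb and Dusp1. With the larger count in the shallower library the genotypes could overlap for Egr1 and Atf3 too. The share of all genes without overlap was not computed, so this is no separate support for their pooled differences.

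Other genes known to be rapidly induced were then examined, from a list of 40 of which 36 had at least 10 reads. Of these 36, 26 (72.2%) were lower and 10 higher in MD43, beside 48.8% and 51.2% of all measured genes. Their median log2 difference was -0.23. A 1.5-fold lower value was found for 7 of the 36 (19.4%) and a 1.5-fold higher value for 0, beside 6.43% and 4.25% of all measured genes. Most of the 7 had under 100 reads in both genotypes, and no 1.5-fold share was computed for genes of like read counts. Cebpb and Ier3 were past 2-fold lower (5.56% of the 36, beside 2.47% of all measured genes). Cebpb, a bZIP factor of acute responses, had 10.1 reads in MD43 and 27.9 in WT (-1.94 ± 0.37). Ier3, a stress-inducible survival gene, had 32.02 and 66.1 reads (-1.52 ± 0.22). The highest was Ier5l at 0.31 ± 0.07. Nr4a1, an orphan receptor gene usually induced together with Fos and Egr1, was at -0.16 ± 0.15, from 1.42 RPKM in MD43 and 1.58 in WT.

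Partners and cofactors of AP-1 and EGR proteins had 9 of 11 members measured, with a median of -0.22. Of the 9, 6 were lower and 3 higher, beside 48.8% and 51.2% of all measured genes. The partners ranged from Jdp2, a repressor that binds AP-1 and CRE sites, at -0.93 ± 0.13 (111 against 153 reads), to Batf2 at 0.65 ± 0.36. Nab2, a corepressor of EGR1 that EGR1 itself induces, was at -0.37 ± 0.07. Fosl1 (-0.66 ± 0.24) and Fosl2 (-0.28 ± 0.14) stand in both lists. Jund, known as the most steadily expressed JUN gene, had only 3.15 and 0.949 reads and was not measured. It was looked at after the values were seen, and the cause of its low count was not tested.

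The 9 other dual-specificity phosphatases had a median of -0.04, from Dusp10 at -0.79 ± 0.20 to Dusp5 at 0.17 ± 0.09. None was 2-fold different, beside 2.47% of all measured genes lower and 1.64% higher. The factors that switch immediate early genes on had 11 of 11 members measured, with a median of 0.13. Of the 11, 3 were lower and 8 higher, beside 48.8% and 51.2% of all measured genes. These factors ranged from Crem, a CRE-binding factor, at -0.34 ± 0.12 to Srf at 0.33 ± 0.06. The upstream kinases were split 10 to 10 with a median of -0.01, from Map2k1 at -0.43 to Map2k2 at 0.19. No gene of either list was 1.5-fold different, beside 6.43% of all measured genes lower and 4.25% higher.

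Heat shock genes, some of which answer another kind of handling stress, had a median of 0.10 over 7 measured members. They ranged from Hspa1b at -0.50 ± 0.31 to Hsph1 at 0.35 ± 0.02. Their lower end rests on few reads, since Hspa1b had 21.5 in MD43 and 21.8 in WT and is nearly identical to Hspa1a. Hspa1a itself, at 4.47 reads in MD43 and 2.32 in WT, was not measured. The 10 housekeeping genes had a median of -0.01, from Eef1a1 at -0.21 to Sdha at 0.07.

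**Figure D4:**
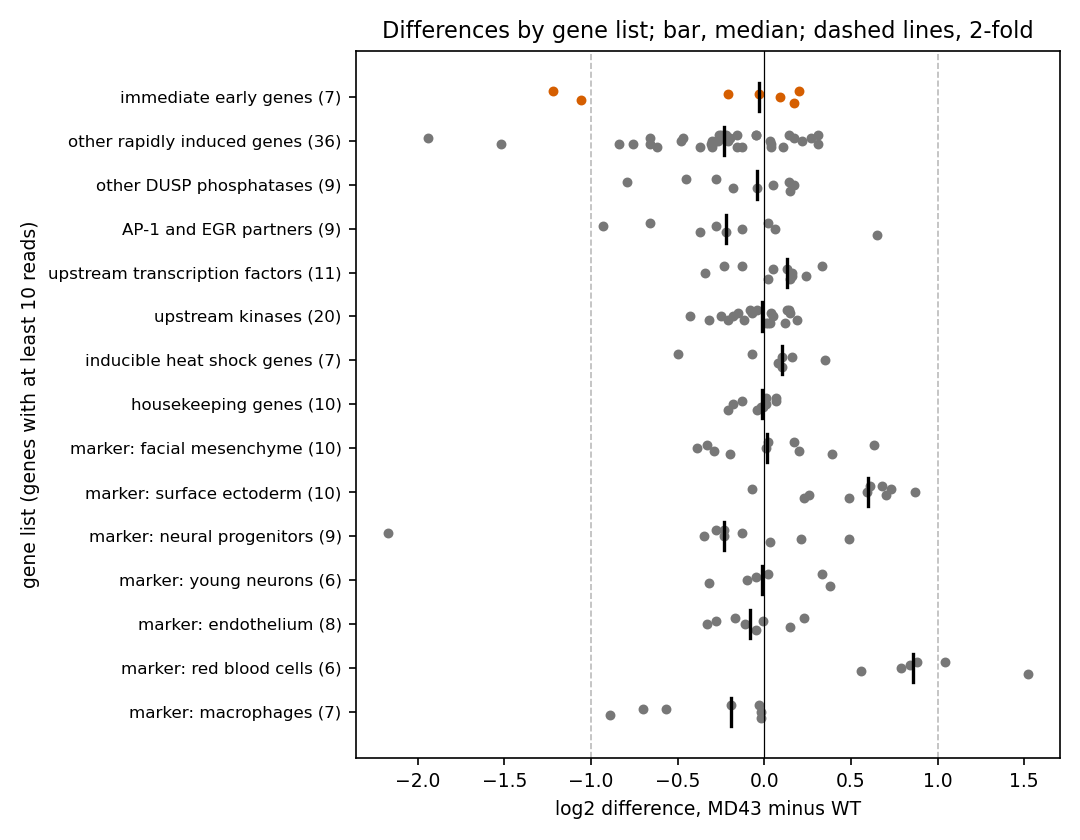
Log2 difference (x axis, MD43 minus WT) of each measured gene by list (y axis, number of genes in brackets), with the median as a black bar and 2-fold as dashed lines; immediate early genes are in orange. The other rapidly induced genes lie mostly left of 0 with a median of -0.23, the kinases and housekeeping genes centre on 0, and the red blood cell (0.86) and surface ectoderm (0.60) markers lie to the right.

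The 2 genotypes also differed in markers of the cell types in the piece. In bulk tissue fewer cells of a type and less RNA per cell cannot be told apart. The counts below stand beside 51.2% of all measured genes higher and 48.8% lower. Of 6 measured red blood cell markers, 6 were higher in MD43, up to Slc4a1 at 1.52, and summed to 3878 RPM against 2048 in WT. Of 10 surface ectoderm markers, 9 were higher, led by Cldn6 at 0.87, with sums of 532 and 359. The macrophage markers were low, with sums of 19.4 and 21.8 RPM. Of 7 measured macrophage markers, 7 were lower in MD43 and 0 higher, with a median of -0.19. A 1.5-fold lower value was found for 2 of the 7, beside 6.43% of all measured genes. Both had 31 reads or fewer in each genotype. Csf1r, the best counted macrophage marker (314 and 231 reads), was at -0.03 ± 0.09. C1qb was lowest at -0.89 ± 0.28, and C1qa was at -0.02 ± 0.44. Of 8 endothelial markers, 6 were lower, from Kdr at -0.33 to Tie1 at 0.23, with sums of 84.5 and 94.4. The neural progenitor markers, 6 of 9 lower, ran from Rax at -2.17 to Lhx2 at 0.49 and summed to 1276 and 1259. The young neuron markers, from Stmn2 at -0.32 to Neurod1 at 0.38, summed to 260.2 and 263.3, and the mesenchyme markers, with Twist1 lowest at -0.39, to 592.6 and 594.8. No listed marker present in the table was at 0 in both genotypes. The part of these differences in the values of Atf3 and Egr1 was not tested.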

How the data were processed

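Poly(A) RNA of 4 FNPs, from 100 ng of total RNA each, was sequenced with a stranded kit per the labels. The authors trimmed reads with Trim Galore 0.4.4, mapped them with HISAT2 2.0.5 (versions per the submitters' processing notes) to GRCm38.p6 and quantified them in SeqMonk, and the deposited table holds autosomal log2 RPKM values, 1 column per genotype. Its columns of the authors' fold change, FDR and mean were not used. Members and lists were chosen with earlier results of these data known. The named genes were the members, Smchd1, and the lowest, the highest and any 2-fold different gene of each list, with Nr4a1, Nab2, Fosl1, Fosl2, Jund, Nes, Csf1r and overlapping genes added after their values were seen. Some marker genes that this rule names are not reported here.

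The log2 difference is the MD43 column minus the WT column. GENCODE M21 (GRCm38) matched 33101 rows by symbol and position and 13 more by start, Ier2 among them. Read products were computed from exon length, taking 0.9 as the count of an empty library. Products from 1000 to 100000 were whole within 0.1 for 99.8% of genes of either genotype, and those above 300000 were not resolved. The minimum for a measured gene was 10 reads in either genotype, and the threshold was 2-fold. A genotype at or under 3 reads gave no fold. Intervals and errors cover counting error only. On simulated data for 33114 genes a log2 library ratio of 0.60 was recovered as 0.593 for MD43. The simulated libraries of a genotype shared 1 composition. They could not show whether the ratio in the real libraries is that of depth. Python 3.11.15, numpy 2.4.6, pandas 2.3.3 and matplotlib 3.10.9 were used. Alternatives were other pseudocounts, centring, a GC and length correction, other read minimums and a 1.5-fold threshold.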

Additional observations from a re-analysis of the deposited data

How the results depend on the processing

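No paired analysis was possible because each genotype has 1 merged column. Likewise no embryo could be left out, and whether 1 embryo sets the values of Atf3 or Egr1 is unknown. With 0.1 RPKM added, 1 member in place of 2 (Atf3) was at least 2-fold lower, with Egr1 at -0.90, and with 1 RPKM added 0 were, since a pseudocount shrinks differences between low levels. Centring on the median of measured genes, the correction for GC content and length (which took up 1.42% of the variance) and a 1.5-fold threshold left the count of lower members at 2. The count of higher members was 0 under each of these settings. Of the 28 alternatives for single measured members, 2 moved by more than counting error, both with 1 RPKM added. A reversal could be scored for Atf3 and Egr1 alone and was not seen. Since a pseudocount cannot change the sign of a difference, this was largely fixed in advance. Of the 28 for other lists, 1 moved, the macrophage median, to -0.57 with all listed genes. The view of single libraries, the count with 0.1 RPKM added and the median above the floor were chosen after seeing the data.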
